A study of Mus musculus with 6 samples.

Results

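The subunits of the proteasome were read in CD8+ T cells sorted from mouse liver. The members are all probes whose gene name in the array files begins with Psma, Psmb, Psmc, Psmd or Psme and a digit, without the immunoproteasome subunits Psmb8, Psmb9 and Psmb10, which are given apart. This gave 67 probes under 41 gene names, out of 27338 names on the array. Of the 41 names, 40 are proteasome genes (16 of the core particle, 17 of the regulatory particle, 3 assembly chaperones that carry a Psmd name and 4 activators). The remaining name, Psmc3ip, matches the letters but belongs to a partner protein of meiotic recombination and is no subunit. It is described last and enters no count of proteasome genes. Of the 40 proteasome genes, 38 passed the filter on low signals and were tested.

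The TGC3 group was dnTGFβRII CXCR3-/-: it carried dnTGFβRII, a dominant negative TGF-beta receptor II, and lacked the chemokine receptor CXCR3. The TG group carried dnTGFβRII alone, so that both groups shared the transgene and no mouse without it was measured. All mice were female, of C57BL/6 background and 13 to 14 weeks old. The promoter of the transgene is not given in the sources used here. Each group had 3 samples, each on 1 one-colour Agilent array, named here TGC3 1 to TGC3 3 and TG 1 to TG 3. Nothing in the labels says that the samples came from separate mice, so the spread behind each p-value is that between these samples. The study set out to learn what CXCR3 does in the activation and proliferation of these cells.

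The proteasome is the main protease of the cytosol and nucleus and degrades proteins marked with ubiquitin. Its core particle is a barrel of 2 outer alpha rings, which gate the entry, around 2 inner beta rings, in which Psmb5, Psmb6 and Psmb7 carry the active sites. The regulatory particle sits on the barrel: its base unfolds the substrate with a ring of ATPases, and its lid removes the ubiquitin chain. In lymphocytes the catalytic subunits are largely exchanged for Psmb8, Psmb9 and Psmb10, the immunoproteasome, which together with the activator of Psme1 and Psme2 is known for making peptides for MHC class I. Cells that divide and secrete depend on the proteasome, and many of its genes are transcribed together.

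Levels are given as log2 processed signal relative to the 75th percentile of the same array, which is 0, and changes are TGC3 minus TG on this log2 scale ± limma's standard error (3 arrays a group). A gene was read by its brightest probe, and p was adjusted over all 16389 genes tested by the Benjamini-Hochberg method. A level belongs to 1 probe and cannot be set against that of another. The share of probes well above background ran from 58.9% to 63.8% over the arrays, and all 38 proteasome genes were above it on all 6. The TGC3 arrays shared 1 slide and scan run and the TG arrays another, and genotype and slide therefore cannot be told apart. Cxcr3, the gene deleted in TGC3, gave an intensity of 23.8, 33.0 and 27.0 on TGC3 1 to 3, against 68779, 66107 and 73352 on TG 1 to 3, a change of -11.35 ± 0.12 (adjusted p = 9.6e-07). All 5 markers of CD8+ T cells (Cd8a, Cd8b1, Cd3d, Cd3e and Cd3g) were above background on every array, and Cd3d and Cd3g were lower in TGC3. In RNA of sorted cells, fewer cells of a type and less RNA per cell cannot be told apart.

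No proteasome gene passed the threshold in either direction in limma. Of the 38 genes, 0 were higher and 0 lower in TGC3 at an adjusted p under 0.05, and 4 had an unadjusted p under 0.05 (Psme1, Psma7, Psmb5 and Psmd5, all lower in TGC3). Among all genes tested, 26% passed, 16.6% higher and 9.45% lower in TGC3. All 38 lay above the median signal of the tested genes, and among genes above that median 7.33% were higher and 11.9% lower. The TGC3 and TG arrays did not overlap in 10 of the 38 genes (1 higher, 9 lower in TGC3), against 46.7% of all genes. With arrays centred on their median instead of their 75th percentile, 13 of the 38 were lower, in a scaling that moved the median change of all genes to -0.18. The share of all genes called lower in that scaling was not counted. The 13 are therefore not read as a result about proteasome genes.

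The changes were small in both directions. They ran from -0.23 (Psmd5) to 0.22 (Psmd13), with 14 above 0 and 24 below. Their median was -0.051, which is 0.965-fold, against -0.0087 for all genes and -0.071 for genes above the median signal. This sign turned under other scalings, to 0.014 with quantile normalization and 0.036 with cyclic loess. The median size of a change, whatever its sign, was 0.089 for proteasome genes, 0.14 for genes above the median signal and 0.19 for all genes. In this scaling the 95% interval of the change lay within 1.5-fold either way in all 38 genes (lowest end -0.43, highest end 0.55), as it did for 86.2% of genes above the median signal and 64.8% of all genes. The interval covers the spread between arrays and not the choice of scaling, and median centring moved the median change to -0.23. It also holds for genotype and slide together. The limit of 1.5-fold was chosen after the values were seen.

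**Figure D1:**
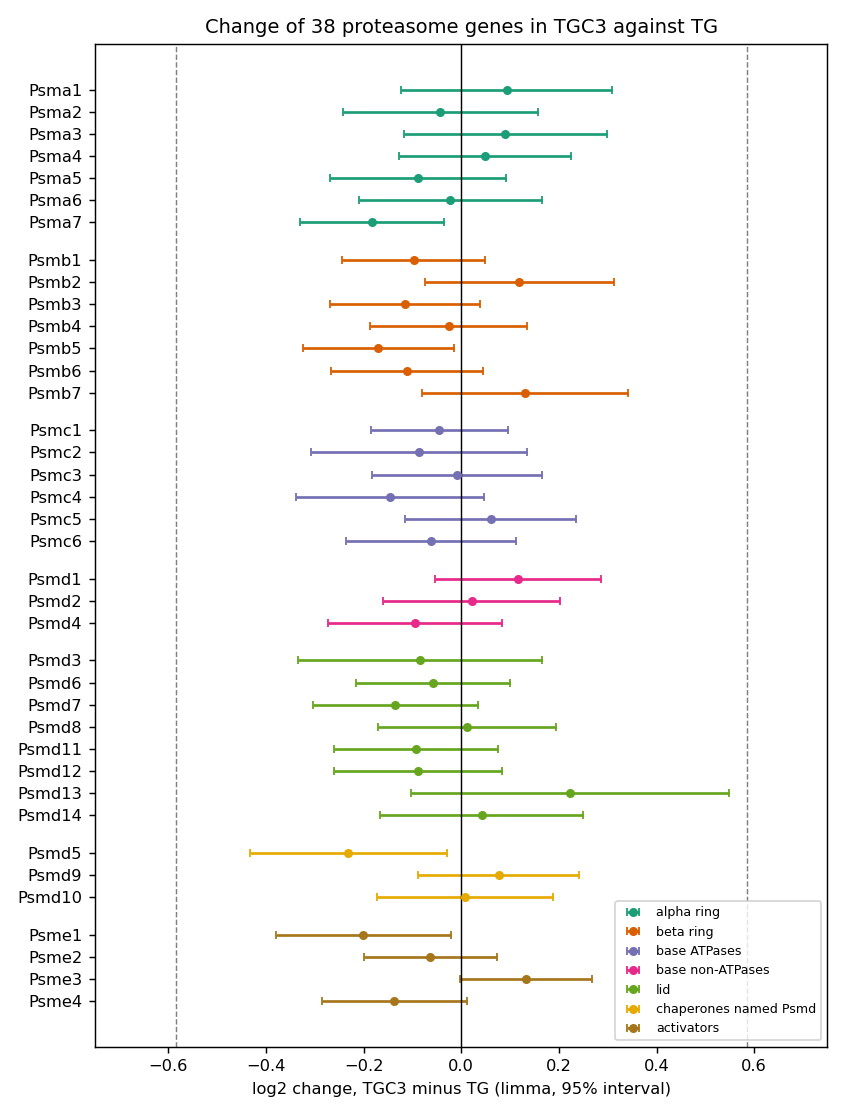
Change of each of 38 proteasome genes (points; horizontal axis, log2 signal in TGC3 minus TG) with its 95% interval from limma (bars), by role, with 3 arrays in each group; dashed lines mark 1.5-fold. All bars lie between -0.43 and 0.55, and 4 of them (Psma7, Psmb5, Psmd5 and Psme1) do not reach 0.

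**Figure D2:**
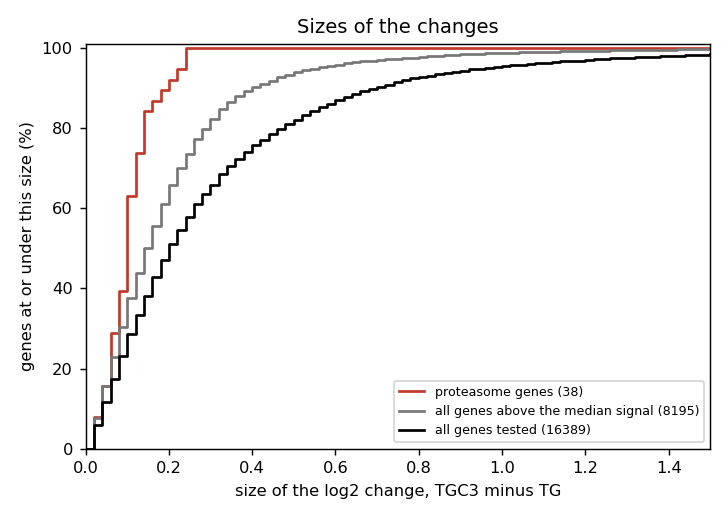
Share of genes (vertical axis, percent) whose change is at or under a given size (horizontal axis, log2, in steps of 0.02) for 38 proteasome genes, 8195 genes above the median signal and 16389 tested genes. All proteasome genes are at or under 0.24, where 73.6% of the genes above the median signal and 57.8% of all genes are.

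The outer rings of the core are built from the Psma genes. Of the 8 names, 7 were tested and their changes had a median of -0.023, with 3 above 0 and 4 below. Psma7 had 5.34, 5.41 and 5.29 on TGC3 1 to 3, against 5.50, 5.52 and 5.56 on TG 1 to 3. Its TGC3 arrays were all below its TG arrays, and the change was -0.18 ± 0.061 (adjusted p = 0.0733, limma). The other 6 overlapped between the groups: Psma1 changed by 0.093, Psma3 by 0.090 and Psma4 by 0.049, while Psma2 had -0.043, Psma5 -0.088 and Psma6 -0.023. Psma8, a testis form of an alpha subunit, was not well above background on any array.

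In the inner rings 7 of 8 Psmb names were tested, with a median of -0.097, 2 changes above 0 and 5 below. Psmb5, which carries the chymotrypsin-like activity, had 3.83, 3.76 and 3.77 on TGC3 1 to 3, against 3.98, 3.88 and 4.01 on TG 1 to 3. The groups were separate by a narrow margin, with a change of -0.17 ± 0.063 (adjusted p = 0.0998, limma). Psmb6, the caspase-like subunit, had 4.22, 4.28 and 4.13 on TGC3 arrays and 4.31, 4.30 and 4.36 on TG arrays. They were likewise separate, and the change was -0.11 ± 0.064 (adjusted p = 0.245). Psmb7, the trypsin-like subunit, had 2.66, 2.75 and 2.62 on TGC3 arrays and 2.50, 2.44 and 2.70 on TG arrays. Here TG 3 lay among the TGC3 values, and the change was 0.13 ± 0.087 (adjusted p = 0.309).

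Of the beta subunits without an active site, Psmb1 (-0.097) and Psmb3 (-0.12) were below TG on every TGC3 array, while Psmb2 (0.12) and Psmb4 (-0.025) overlapped. None of these 4 passed the threshold. Psmb11, the beta subunit of the thymic cortex, was above background on 2 and 1 of the 6 arrays with its 2 probes and was not tested. The probe brighter on average had an intensity of 16.2, 18.2 and 17.8 on TGC3 1 to 3, against 7.69, 6.13 and 7.39 on TG 1 to 3. Its other probe had 3.84, 2.73 and 3.46 on TGC3 1 to 3, against 2.60, 19.0 and 3.21 on TG 1 to 3, overlapping. With no filter on low signals Psmb11, read by the probe brighter on average, was the only proteasome gene called higher. In the main fit, 443 of the 1638 tested genes of the dimmest signal decile were higher in TGC3 and 93 lower.

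The regulatory particle held 17 tested genes, 0 of them with separate groups, beside 46.7% of all genes. The 6 ATPases of the base, Psmc1 to Psmc6, had a median of -0.053. Their changes ran from -0.15 (Psmc4) to 0.061 (Psmc5), and that of Psmc3 was -0.0091. Psmd2 is a large scaffold of the base and a docking site for ubiquitin shuttles. It had 3.99, 3.98 and 3.92 on TGC3 1 to 3, against 3.88, 3.87 and 4.06 on TG 1 to 3. The TG range enclosed the TGC3 range, and the change was 0.021 ± 0.074 (adjusted p = 0.855, limma), turning to -0.15 with median centring. Psmd4, a ubiquitin receptor, had 3.32, 3.15 and 3.24 on TGC3 arrays and 3.38, 3.25 and 3.37 on TG arrays. Both groups overlapped, with a change of -0.095 ± 0.073 (adjusted p = 0.377). Psmd1, the other large scaffold, changed by 0.12 with overlapping groups.

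The lid gave 8 tested genes with a median of -0.071, 3 above 0 and 5 below. Psmd14 is the metalloprotease that cuts the ubiquitin chain from the substrate. Its brightest probe crosses a splice junction (mm9, chr2:61635507-61638090, plus strand) and is shown for that, with no capitals since no base is singled out. Whether it also reads unspliced RNA was not tested.
Psmd14: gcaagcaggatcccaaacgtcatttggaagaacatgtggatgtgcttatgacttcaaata
It had 3.92, 4.03 and 3.83 on TGC3 1 to 3, against 3.83, 3.82 and 4.01 on TG 1 to 3. The groups overlapped almost fully, and the change was 0.042 ± 0.086 (adjusted p = 0.749, limma), turning to -0.13 with median centring. Psmd13 had the highest change of the 38 proteasome genes, 0.22 ± 0.13, and the widest interval (-0.10 to 0.55). Its values were 0.073, -0.080 and 0.34 on TGC3 arrays and 0.065, -0.16 and -0.24 on TG arrays, overlapping, with an adjusted p of 0.264. The other 6 lid genes, the structural subunits Psmd3, Psmd6, Psmd7, Psmd8, Psmd11 and Psmd12, lay between -0.13 (Psmd7) and 0.012 (Psmd8).

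The median change was -0.034 over the 14 core genes and -0.058 over the 17 genes of the regulatory particle, and the difference between these particles overlapped between the groups. Each gene was centred on its own mean over the 6 arrays, and the mean over core genes minus the mean over regulatory particle genes was taken on each array. This difference was 0.0073, 0.058 and -0.068 on TGC3 1 to 3, against -0.010, 0.0079 and 0.0049 on TG 1 to 3. The TGC3 values enclosed all TG values. The group means were -0.00090 ± 0.063 in TGC3 and 0.00090 ± 0.0096 in TG (SD, n = 3 each). The difference between the 2 median changes was 0.023, and -0.035 without TGC3 2.

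**Figure D3:**
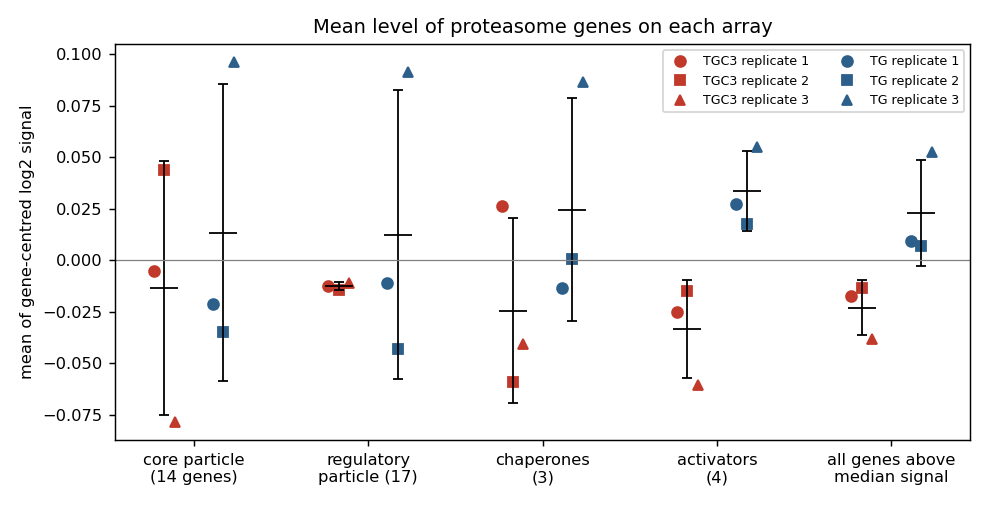
Mean log2 signal of core, regulatory particle, chaperone and activator genes on each array (points), each gene centred on its mean over 6 arrays, beside all genes above the median signal; long bars are group means and thin bars SD, n = 3 each. In the core and regulatory particle the groups overlap and TG 3 is the highest array (0.096 and 0.091), while the means of the activators and of all genes above the median signal are lower on every TGC3 array. TG 3 is also the highest array for all genes above the median signal (0.052).

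TG 3 stood above the other TG arrays in most proteasome genes. It was the highest of the TG arrays in 32 of 38, against 42.9% of all genes and 55.3% of genes above the median signal. The mean over the 38 centred genes was -0.0080, 0.0034 and -0.043 on TGC3 1 to 3, against -0.011, -0.030 and 0.089 on TG 1 to 3. The groups overlapped, with TG 3 the highest and TGC3 3 the lowest array. Bright genes in general showed the same order of these 2 arrays, and the 38 genes had a median signal percentile of 89.5. Over all tested genes in the brightest decile, the mean was -0.038, 0.0029 and -0.072 on TGC3 1 to 3. On TG 1 to 3 it was 0.027, 0.012 and 0.068. Without TG 3 the median change of the proteasome genes was -0.0062, and still 0 genes passed in either direction. The within-group SD of a proteasome gene had a median of 0.076, against 0.086 for genes above the median signal and 0.12 for all genes.

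Among the 3 chaperones, which hold parts of the base during assembly and leave the finished particle, Psmd5 had the lowest change of the 38 proteasome genes. It had 1.72, 1.57 and 1.76 on TGC3 1 to 3, against 1.83, 1.90 and 2.02 on TG 1 to 3. The groups were separate, with a change of -0.23 ± 0.083 (adjusted p = 0.0905, limma). Psmd9 and Psmd10 changed by 0.076 and 0.0074, with overlapping groups.

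The activators open the barrel without ATP or ubiquitin, and in all 4 genes the groups were separate (3 lower and 1 higher in TGC3), beside 46.7% of all genes, and none passed the threshold. Their mean on each array was lower in TGC3 than in TG, as was that of all genes above the median signal. Psme1 and Psme2 form the activator that interferon gamma induces. Psme1 had 6.42, 6.40 and 6.24 on TGC3 1 to 3, against 6.51, 6.54 and 6.61 on TG 1 to 3. All TGC3 values were lower, with a change of -0.20 ± 0.073 (adjusted p = 0.0947, limma). Psme2 had 7.19, 7.18 and 7.14 on TGC3 arrays and 7.27, 7.21 and 7.22 on TG arrays. It was lower on all TGC3 arrays by a small margin, with a change of -0.063 ± 0.056 (adjusted p = 0.446), and its sign turned with cyclic loess (0.037).

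Psme3, the nuclear activator, had 0.90, 0.87 and 0.94 on TGC3 1 to 3, against 0.79, 0.74 and 0.78 on TG 1 to 3. It was the only tested proteasome gene with all TGC3 arrays above all TG arrays, by 0.13 ± 0.056 (adjusted p = 0.129, limma), and its sign turned with median centring (-0.042). Psme4, an activator known for work in the nucleus and in spermatogenesis, had 3.40, 3.50 and 3.46 on TGC3 arrays and 3.54, 3.60 and 3.63 on TG arrays. All TGC3 arrays were lower, and the change was -0.14 ± 0.061 (adjusted p = 0.150).

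The immunoproteasome subunits, left out of the members, showed small negative changes that did not pass. Psmb8, which takes the place of Psmb5, had 6.28, 6.19 and 6.19 on TGC3 1 to 3, against 6.33, 6.28 and 6.42 on TG 1 to 3, a change of -0.12 ± 0.067 (adjusted p = 0.221, limma). Psmb9, which takes that of Psmb6, had 5.67, 5.63 and 5.48 on TGC3 arrays and 5.75, 5.67 and 5.81 on TG arrays, a change of -0.15 ± 0.078 (adjusted p = 0.205). Psmb10, the counterpart of Psmb7, had 7.02, 6.97 and 6.96 on TGC3 arrays and 7.12, 7.01 and 7.10 on TG arrays, a change of -0.096 ± 0.061 (adjusted p = 0.287). The groups overlapped in all 3. With median centring, which moved the median of all genes to -0.18, all 3 were called lower (-0.30 for Psmb8, -0.32 for Psmb9 and -0.27 for Psmb10, adjusted p 0.0353 to 0.0398, against 0.0353 to 0.977 over all settings). As said above, the share of all genes called lower in that scaling was not counted.

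Each immunoproteasome subunit was also set against its standard counterpart on the same array, as the log2 signal of one minus that of the other. Only the shift of this difference between groups can be read, since the probes differ. For Psmb8 minus Psmb5 it was 2.45, 2.43 and 2.42 on TGC3 1 to 3, against 2.35, 2.39 and 2.41 on TG 1 to 3, a shift of 0.046. For Psmb9 minus Psmb6 it was 1.45, 1.35 and 1.34 on TGC3 arrays and 1.44, 1.36 and 1.45 on TG arrays, a shift of -0.039. For Psmb10 minus Psmb7 it was 4.36, 4.22 and 4.33 on TGC3 arrays and 4.62, 4.57 and 4.40 on TG arrays, a shift of -0.23. The first and the last pair were separate between the groups, in opposite directions. The two-sided exact permutation p was 0.1, 0.3 and 0.1 for the 3 pairs (0.15, 0.3 and 0.15 adjusted over the 3), and 0.1 is the smallest that 3 against 3 arrays allow.

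Genes read by several probes gave a different picture for a few probes. In a fit with each of 25103 kept probes as its own row, 60 probes of proteasome genes were tested, of which 1 was higher and 4 lower in TGC3. Among all probes, 13.7% were higher and 8.37% lower. None of the 38 brightest probes was among these 5, nor any of the 24 that span more bases of the genome than their length, taken to cross a splice junction, nor any of the 13 less bright probes on curated RefSeq mRNA records. The Psme3 probe, counted in the 24, spans 61 bases with a length of 60, too small a gap for an intron. All 5 were among the 9 less bright probes on Ensembl or cDNA records, a split made after the values were seen.

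Psma3 showed the widest disagreement and is shown with the 2 probes that share a stretch of the genome. The brightest probe (NM_011184, mm9, chr12:72079794-72084356, plus strand) spans an intron, and a second (ENSMUST00000161041, chr12:72079870-72079929, plus strand) lies inside that intron. No base is singled out in them by capitals.
Psma3 junction probe: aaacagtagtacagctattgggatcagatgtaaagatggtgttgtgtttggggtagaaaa
Psma3 intron probe: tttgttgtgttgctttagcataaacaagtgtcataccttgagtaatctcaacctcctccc
The junction probe had 3.35, 3.40 and 3.41 on TGC3 1 to 3, against 3.25, 3.19 and 3.46 on TG 1 to 3, overlapping, with a change of 0.090 ± 0.085. The intron probe had 0.17, 0.26 and 0.29 on TGC3 arrays and 0.47, 0.55 and 0.48 on TG arrays. It was lower on every TGC3 array, with a change of -0.26 ± 0.064 (adjusted p = 0.0354 over all probes, limma). The dimmest Psma3 probe (ENSMUST00000160027, chr12:72096794-72096853, plus strand) had -3.26, -3.38 and -3.40 on TGC3 arrays and -4.71, -4.77 and -4.56 on TG arrays. It was higher on every TGC3 array, by 1.33 ± 0.082 (adjusted p = 0.00076). It had an intensity of 58.5 to 61.8 on TGC3 arrays and 21.0 to 26.3 on TG arrays. Its change was 0.36 with normexp background correction, still past the threshold, whereas the intron probe missed it without any 1 of the 6 arrays (adjusted p 0.0553 to 0.116), with cyclic loess (0.0562) and with normexp (change -0.16, adjusted p 0.0571). Dim genes were in general more often higher in TGC3. The dimmest decile of tested genes had a median change of 0.33, with 443 of 1638 higher and 93 lower. Whether the dimmest Psma3 probe differs from that shift was not tested.

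The other 3 probes past the threshold were lower in TGC3, each beside a brighter probe of the same gene that did not pass. For Psma7 the probe of ENSMUST00000142042 changed by -0.32 ± 0.062 (adjusted p = 0.0178, limma over all probes), averaging -0.70 ± 0.048 in TGC3 and -0.38 ± 0.044 in TG (SD, n = 3 each). For Psmd4 the probe of ENSMUST00000147960 changed by -0.40 ± 0.076 (adjusted p = 0.0161), with averages of -2.35 ± 0.10 in TGC3 and -1.95 ± 0.058 in TG. For Psmd7 the probe of AK158379 changed by -0.30 ± 0.074 (adjusted p = 0.0340), with averages of -0.85 ± 0.081 in TGC3 and -0.55 ± 0.071 in TG. In each case the groups were separate. Leaving out 1 array ended the call of the Psma7 probe (without TGC3 3, TG 1 or TG 2, highest adjusted p 0.0593), of the Psmd4 probe (without TG 1 or TG 2, highest 0.0603) and of the Psmd7 probe (without TGC3 1, TGC3 3, TG 1 or TG 2, highest 0.110). The Psmd7 call also ended with normexp background correction (change -0.18, adjusted p = 0.0891), and the other 2 held. Which part of the gene these records cover was not analysed here.

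**Figure D4:**
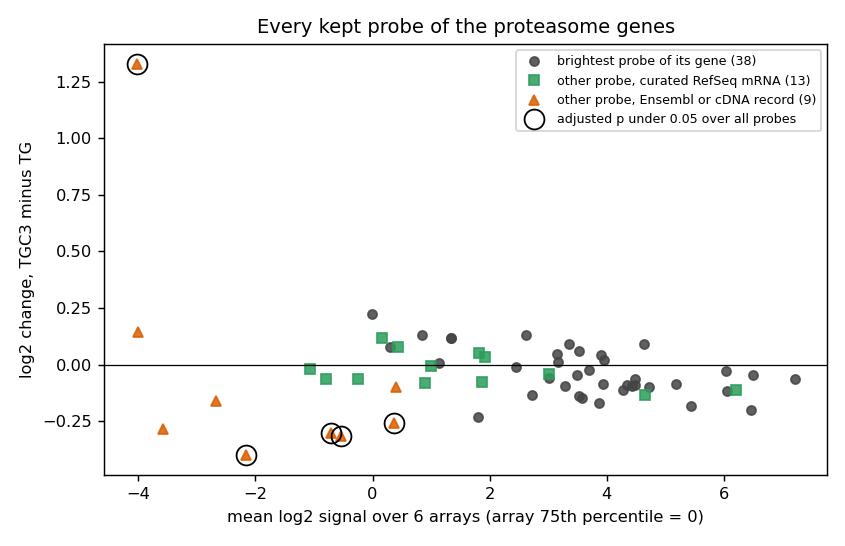
Change of 60 kept probes of proteasome genes (vertical axis, log2 signal in TGC3 minus TG) against the mean log2 signal over 6 arrays (horizontal axis); circles mark an adjusted p under 0.05 over all probes. The 5 circled probes are all less bright probes on Ensembl or cDNA records, with the highest change, 1.33, at a mean signal of -4.02.

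Of 35 other genes of the pathway, 2 were higher and 3 lower in TGC3, beside the backgrounds of 16.6% and 9.45% given above. Zfand5, a zinc finger protein that binds the proteasome and raises its activity, had 2.25, 2.11 and 2.11 on TGC3 1 to 3, against 1.35, 1.45 and 1.68 on TG 1 to 3. All TGC3 arrays were higher, by 0.66 ± 0.10 (adjusted p = 0.00807, limma), but its other 2 kept probes changed by 0.015 and 0.25 and did not pass. Adrm1, a ubiquitin receptor of the base, had 2.77, 2.81 and 2.81 on TGC3 arrays and 2.44, 2.52 and 2.61 on TG arrays. It was higher on all TGC3 arrays, by 0.28 ± 0.066 (adjusted p = 0.0287), but its other probe changed by -0.10. The Adrm1 call ended when TGC3 1, TGC3 2, TGC3 3, TG 1 or TG 2 was left out, at an adjusted p between 0.0570 and 0.0930, and with median centring the change was 0.10.

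The 3 lower genes, out of 35 and beside 9.45% lower among all genes, were Nfe2l2, Ddi2 and Psmg3. Nfe2l2, a transcription factor of the response to oxidative stress that can activate proteasome genes, had 2.39, 2.30 and 2.28 on TGC3 1 to 3, against 2.68, 2.71 and 2.76 on TG 1 to 3. It fell on all TGC3 arrays, with a change of -0.39 ± 0.062 (adjusted p = 0.00867, limma), and all 3 of its probes passed. Ddi2, the protease that activates the transcription factor Nfe2l1, had 3.23, 3.18 and 3.29 on TGC3 arrays and 3.58, 3.63 and 3.56 on TG arrays. All TGC3 arrays were below all TG arrays, with a change of -0.35 ± 0.060 (adjusted p = 0.0105), again with all 3 probes past the threshold. Psmg3, a chaperone of the alpha ring, had 1.73, 1.80 and 1.74 on TGC3 arrays and 2.08, 2.01 and 2.16 on TG arrays. Its TGC3 values were all lower, with a change of -0.33 ± 0.065 (adjusted p = 0.0169), and the call ended when TGC3 1, TGC3 3 or TG 1 was left out, at an adjusted p between 0.0545 and 0.0585.

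The remaining 30 genes of that list, among them the p97 unfoldase Vcp, the deubiquitinases Usp14 and Uchl5, the inhibitor Psmf1 and the ubiquitin gene Ubb, did not pass. Nfe2l1, the factor that restores proteasome genes when the proteasome is inhibited, had 2.54, 2.34 and 2.59 on TGC3 1 to 3, against 2.64, 2.76 and 2.73 on TG 1 to 3. Its groups were separate, with a change of -0.22 ± 0.086 (adjusted p = 0.108, limma).

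Promoters were read from RefSeq (GRCm38.p6), as the 250 bases before the start of each gene, for 33 of the 40 proteasome genes, which have 36 such windows. The antioxidant response element that Nfe2l1 and Nfe2l2 bind was searched as TGACNNNGC on both strands and found in 5 windows (13.9%), against 10.2% of all 32851 windows. The genes were Psmb5, Psmb6, Psmc6, Psmd9 and Psmd12. CCAAT, the box of the factor NF-Y, was in 13 windows (36.1%, against 33.8%), and CACGTG, an E-box, in 3 (8.33%, against 6.02%). A window could hold several of these motifs, and a match shows only that the letters occur. The promoters of the catalytic subunits Psmb6 (chr11:70525107-70525356, plus strand) and Psmb5 (chr14:54617996-54618245, minus strand) are shown because both hold the element, in capitals, beginning 9 and 47 bases before the start.
Psmb6 promoter: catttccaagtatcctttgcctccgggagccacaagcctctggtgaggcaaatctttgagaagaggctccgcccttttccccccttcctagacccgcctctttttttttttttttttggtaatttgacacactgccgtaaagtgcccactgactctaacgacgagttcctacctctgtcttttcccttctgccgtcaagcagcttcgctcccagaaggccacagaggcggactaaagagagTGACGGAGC
Psmb5 promoter: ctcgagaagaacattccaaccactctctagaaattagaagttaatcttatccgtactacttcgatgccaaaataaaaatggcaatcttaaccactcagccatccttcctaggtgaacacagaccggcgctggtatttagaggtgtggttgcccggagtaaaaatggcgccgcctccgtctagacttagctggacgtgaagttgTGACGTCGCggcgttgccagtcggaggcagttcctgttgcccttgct
As given above, the 2 genes changed by -0.11 and -0.17 without passing the threshold.

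Other gene groups moved between the same arrays, and their counts stand beside 16.6% higher and 9.45% lower among all genes tested. Several of the markers are dim, and in the dimmest signal decile 443 of 1638 tested genes were higher and 93 lower. All 17 cell cycle genes tested were higher in TGC3, with a median change of 1.54 and a summed level (in multiples of the 75th percentile) of 78.9, 127.9 and 80.2 on TGC3 1 to 3, against 35.7, 34.6 and 42.3 on TG 1 to 3. Of 8 neutrophil markers 4 were tested and 2 were higher, with a summed level of 1.63, 8.03 and 3.04 on TGC3 arrays and 0.17, 0.11 and 0.14 on TG arrays. Of 8 B cell markers 5 were tested, 3 higher and 1 lower, and the summed level was 6.08 to 6.54 in TGC3 and 6.22 to 7.52 in TG. The neutrophil marker S100a8 and the B cell marker Ms4a1, both called higher, were well above background on only 3 of the 6 arrays. Their TG levels were -7.35 to -7.26 and -7.86 to -7.76. They met the filter through the group in which they were high, so their being tested was tied to the direction of the call. S100a9, the other neutrophil marker called higher, was well above background on 4 arrays. Its levels were 0.23 to 2.59 in TGC3 and -7.14 to -5.27 in TG. Of 11 macrophage markers 6 were tested and 3 were higher (summed level 1.22 to 3.32 in TGC3 and 0.78 to 0.96 in TG), while of 9 hepatocyte markers only Trf was tested, and it was higher. Of 7 dendritic cell markers 5 were tested and 2 were higher, with a summed level of 14.4 to 23.9 in TGC3 and 18.4 to 21.0 in TG. The part of these groups in the proteasome values was not tested.

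Psmc3ip, the name that matched the rule without being a subunit, was the only one of the 39 tested names past the threshold. It had -0.18, -0.035 and -0.14 on TGC3 1 to 3, against -0.95, -0.97 and -0.54 on TG 1 to 3. The groups were separate, with a change of 0.70 ± 0.13 (adjusted p = 0.0137, limma), and its second probe changed by 0.58 ± 0.11 (adjusted p = 0.0143 over all probes).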

How the data were processed

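RNA of 6 samples (3 TGC3, 3 TG, grouped by the genotype label) was read on one-colour Agilent arrays. Intensity values are Feature Extraction's processed signal, which per the file headers was background-subtracted and detrended array by array, with no scaling between arrays (version 10.7.3.1 in the headers and 10.7.1.1 in the submitters' processing notes). Probe positions are on mm9. The deposited matrix holds log2 values whose making is not stated: its 6 columns have the same median (5.57) and it served as an alternative. Each column correlated at 0.999 to 1.00 with the log2 processed signal of its array across probes, which fixes its log scale and direction.

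Of 45018 spots, 43379 were not controls and held 41174 probes; 11 were left out for outlier spots and 0 were saturated. Spots of a probe were averaged, log2 signals scaled by each array's 75th percentile (561 to 623 intensity units) and probes kept that were well above background on 3 or more of the 6 arrays (25103). Names were updated from RefSeq records, 56 of the 67 member probes by accession. TGC3 and TG were compared two-sided with limma 3.58.1 (lmFit, eBayes) in R 4.3.3, with files read by the package data.table (version 1.17.8), over the brightest probe of 16389 genes and over all kept probes. Tables and figures were made with Python 3.11.15, numpy 2.4.6, pandas 2.3.3, scipy 1.17.1 and matplotlib 3.10.9. The limma fit was also run on simulated data with independent noise for each gene. That simulation held no slide effect and no difference in scaling, so it does not bear on those limits.

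Full values are given for members past the threshold, Psmb5 to Psmb7, Psmd14, Psmd2, Psmd4, the 4 Psme genes, Cxcr3, Psmb8 to Psmb10 and pathway genes past the threshold; Psma7, Psmd5, Psmd13, Psma3 and Nfe2l1 were added after their values were seen. Members and lists were chosen with earlier results of these data known. Pairs of subunits were compared with an exact permutation test over arrays. Alternatives were other normalizations, background corrections, filters and probe rules, the deposited values, moderation, array weights, a block on the replicate number and leaving out each array. The number of arrays limits the precision. The design has no mice without the transgene.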

Additional observations from a re-analysis of the deposited data

How the results depend on the processing

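Of the 38 proteasome genes, 0 were higher and 0 lower without any 1 array, with a filter on all 6 arrays, and in quantile, cyclic loess and deposited values. No pairing of the arrays by number was seen (same-numbered arrays deviated with correlations of -0.0031, -0.077 and -0.099). With 3 arrays a group such values cannot exclude one. With the replicate number as a block the counts were also 0 and 0 and the median change -0.051; the block ended the calls of Ddi2 (adjusted p = 0.055), Psmg3, Adrm1 and the 4 less bright probes called lower. Other settings made a few calls: 13 lower with median centring, 1 higher and 1 lower with normexp, 1 higher with normexp after replacing 7 aberrant backgrounds of TG 3, 1 higher with no filter, 1 higher and 2 lower with the mean of the probes, 2 lower with trend and robust settings and 1 lower with array weights. The share of all genes called in each of these settings is not given. These calls are therefore not read as a result about proteasome genes. The median change of all proteasome genes, of the core and of the regulatory particle was -0.23, -0.21 and -0.23 with median centring and 0.036, 0.057 and 0.027 with cyclic loess. For all proteasome genes and for the regulatory particle it was 0.014 and 0.021 with quantile normalization, 0.015 and 0.022 in the deposited values, 0.023 and 0.028 with normexp and 0.023 and 0.029 with repaired normexp. Leaving out 1 array gave -0.069 to -0.0062 for all, -0.081 to 0.013 for the core, -0.084 to -0.0036 for the regulatory particle and -0.035 to 0.067 for core minus regulatory particle. Signs turned, with no call, for Psmb7 (-0.045), Psmd14 (-0.13), Psmd2 (-0.15) and Psme3 (-0.042) with median centring, Psme2 (0.037) and Psmb10 (0.0032) with cyclic loess, Psme2 with both normexp settings (0.00015 and 0.00014), Psmd14 (-0.070) and Psmd2 (-0.029) with the mean of the probes, Psmd14 without TGC3 2 (-0.011, highest 0.10 without TG 3) and Psmd2 without TG 1 (-0.0063) or TG 2 (-0.013, highest 0.083 without TG 3). The cause was not tested. The probe-level settings and the 1.5-fold interval count were added after the data were seen.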
